A study of Mus musculus with 6 samples.

Results

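The genes described here are 39 genes by which cells take up, activate, oxidise and store fatty acids. They were chosen by name, by mapping the RefSeq accession of each deposited value to a mouse gene symbol and taking a fixed list, and all 39 were found among the 34656 genes of the series, each with 1 accession. The study profiled polyA RNA of primary myoblasts, the precursor cells of muscle fibres, isolated from the skeletal muscles of male mice aged 1 month. One group of 3 libraries came from mice labelled SfpqSM-KO, called Sfpq knockout here, and the other 3 from control mice. Both groups were expanded in growth medium with 20% fetal bovine serum and 2.5 ng/mL of the growth factor bFGF. The cells were then differentiated for 4 days in 2% horse serum, which prompts fusion into myotubes. Sfpq is a nuclear RNA-binding protein of transcription and splicing. The sources used here do not give the promoter that drives the deletion, the exons it removes, the control genotype or the strain. Nor do the labels say whether the 3 libraries of a group came from different animals or cultures, so the p-values reflect the spread among these samples alone, and that spread may be technical.

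Long-chain fatty acids reach the muscle cell in part after lipoprotein lipase has released them from lipoproteins. They are taken up with the help of CD36 and held in the cytosol by fatty acid binding proteins, and acyl-CoA synthetases then join them to coenzyme A. The carnitine shuttle moves the acyl groups into the mitochondrion, where beta-oxidation shortens them by repeated rounds of dehydrogenation, hydration, dehydrogenation and thiolysis and passes the electrons to the respiratory chain. Fatty acids that are not burned are kept as triglyceride in lipid droplets. Fatty acid oxidation is a main energy source of slow and oxidative fibres, and inherited defects of these enzymes cause metabolic myopathies.

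Sfpq itself stood at 18.3, 19.3 and 14.1 TPM in the knockout libraries and at 48.6, 60.5 and 49.9 TPM in the control libraries (TPM, transcripts per 1000000 transcripts, a level corrected for transcript length). Between 12216 and 12484 genes per library reached 1 TPM, and the read depth behind each value is unknown, because TPM keeps none. The cultures expressed the fixed myotube markers: all 8 were tested, and their summed level ran from 49412 to 52824 TPM in knockout and from 44648 to 46844 TPM in control. Acta1 gave most of this sum (27633.9 TPM on average over the 6 libraries), and the other 7 markers, summed after the values had been seen, overlapped between groups, from 18411 to 21217 TPM in knockout and from 19683 to 24028 TPM in control. The 6 cell cycle markers summed to between 6.62 and 18.7 TPM in knockout and between 19.4 and 25.03 TPM in control. Of the fat cell markers 7 of 8 were under 1 TPM in all libraries (Cfd and Retn at 0), as were 7 of 8 of the endothelial markers (Tie1 and Emcn at 0) and 7 of 8 of the macrophage markers (Adgre1, C1qa, C1qb and Ptprc at 0). The part of the Acta1 and cell cycle differences in the results below was not tested. In bulk RNA, fewer cells of a type and less RNA per cell cannot be told apart.

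Most of the fatty acid genes stood lower in the knockout cultures by a modest amount, and none passed the test across all genes. Of the 39 genes, 37 reached 1 TPM in 3 or more libraries and were tested, and Fabp4 and Plin5 did not. With limma on log2(TPM + 1) and Benjamini-Hochberg adjustment over 12461 genes, 0 of the 37 were called lower and 0 higher, where 0% of all genes tested were called in either direction. The smallest adjusted p among them was 0.163, for Acsl1. Sfpq itself was not called either (log2 difference −1.57, SE 0.15, limma adjusted p = 0.0531), so a gene that was not called need not be unchanged. Values were lower in knockout for 32 of the 37 genes, against 64.5% of all genes tested, and the median log2 difference was −0.26, against −0.07 over all genes. At an unadjusted p under 0.05 there were 11 lower (9.62% of all genes) and 1 higher (2.68% of all genes). Every knockout library lay below every control library for 12 of the 37 genes (15.3% of all genes), and the reverse held for 1 (4.27% of all genes). These counts used TPM without scaling between libraries. The summed level of the 39 genes was 3212 ± 221 TPM in knockout and 3662 ± 296 TPM in control (SD, n = 3), with all 3 knockout libraries (2957, 3342 and 3338 TPM) below the lowest control library, replicate 2 (3351 TPM). The nearest knockout and control sums were almost equal.

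**Figure D1:**
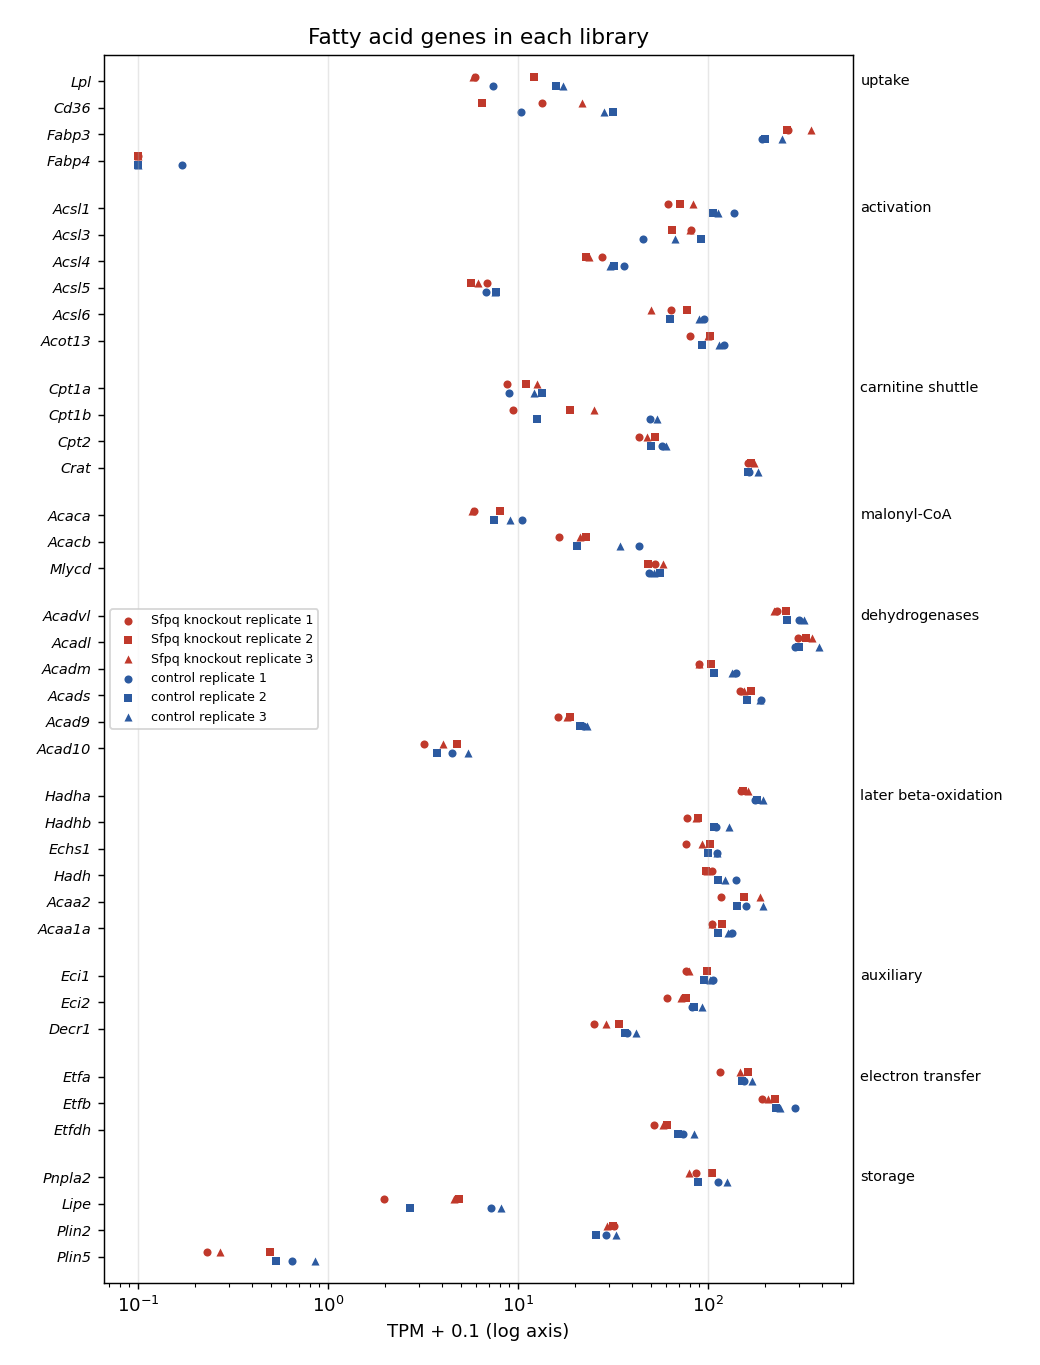
Level of each of the 39 genes in each library, as TPM + 0.1 on a log axis, grouped by role, with the 3 knockout libraries in red and the 3 control libraries in blue and the replicate number shown by the marker shape. Levels run from 0 for Fabp4 in 5 libraries to 382 TPM for Acadl in control replicate 3, and for Acsl1, Hadhb and Etfdh the red points lie to the left of all blue points.

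**Figure D2:**
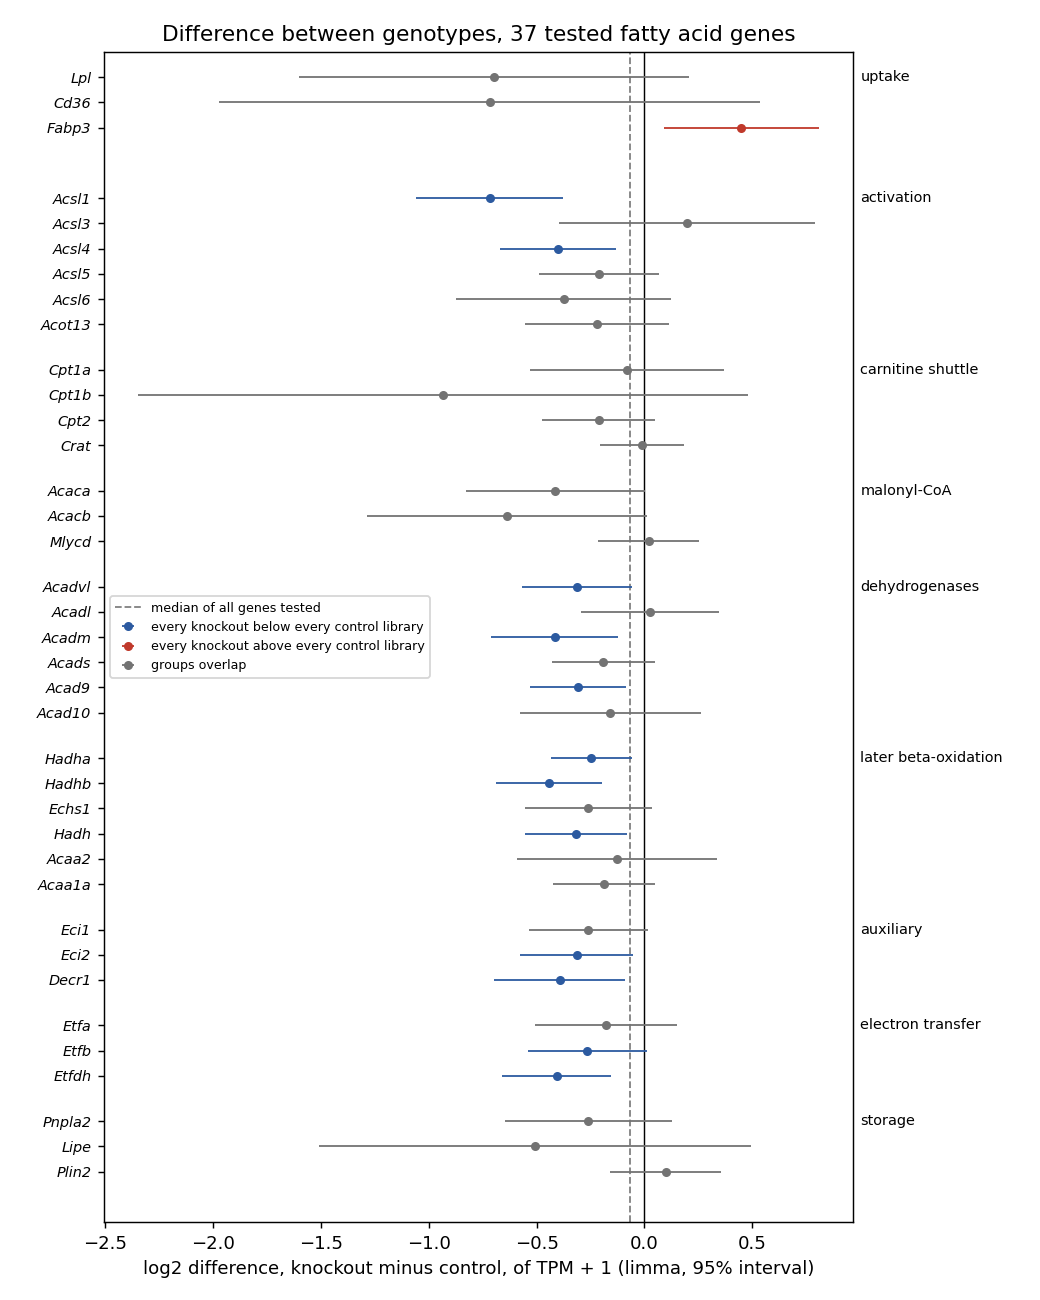
Log2 difference between knockout and control of TPM + 1 for the 37 tested genes, with the 95% interval of the limma fit, coloured by whether the libraries of both groups overlap. The dashed line is the median of all genes tested, −0.07, and 32 of the 37 points lie below 0.

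Among the genes of fatty acid entry, the binding protein and the uptake genes differed in direction. Fabp3, the fatty acid binding protein of heart and skeletal muscle, stood at 264, 259 and 348 TPM in the knockout libraries and at 192, 199.5 and 244 TPM in the control libraries. All 3 knockout libraries were above all control libraries, and Fabp3 was the only one of the 37 genes with that pattern. The log2 difference was 0.45 (SE 0.15, limma adjusted p = 0.334). The exons of Fabp3 share 81 bases with Zcchc17 on the opposite strand, and the sources used here do not say whether the counting used strand. Fabp4, the form of fat cells and endothelium, was listed at 0 in 5 libraries and at 0.071 TPM in control replicate 1.

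Lpl, lipoprotein lipase, stood at 5.80, 12.1 and 5.67 TPM in knockout and at 7.32, 15.7 and 17.1 TPM in control. Cd36, the fatty acid translocase, stood at 13.3, 6.39 and 21.5 TPM in knockout and at 10.2, 31.3 and 28.2 TPM in control. The groups overlapped for both genes, since control replicate 1 was low for each. The log2 differences were −0.70 (95% interval −1.60 to 0.21) for Lpl and −0.72 (−1.97 to 0.53) for Cd36, with limma adjusted p of 0.498 and 0.605. Without control replicate 1 they were −1.05 for Lpl and −1.20 for Cd36. Cd36 was at −0.29 without Sfpq knockout replicate 2, −1.09 without Sfpq knockout replicate 3 and −0.44 without control replicate 2. Cd36 is also expressed by capillary endothelium and macrophages and Lpl by fat cells, and 1 marker of each of these cell types exceeded 1 TPM in any library: Vwf reached 2.39 TPM, Cd68 1.45 TPM and Pparg 1.82 TPM. The fat cell markers summed to between 1.71 and 1.87 TPM in knockout and between 1.16 and 1.54 TPM in control, the endothelial markers to between 1.62 and 2.87 TPM and between 2.25 and 3.10 TPM, and the macrophage markers to between 0.763 and 2.02 TPM and between 1.21 and 1.70 TPM. The 7 fibroblast markers measured summed to between 169 and 221 TPM in knockout and between 204 and 297 TPM in control. Of those tested, Col3a1 (160.2 against 205 TPM) and Col1a1 (15.9 against 47.4 TPM) had lower means in knockout and Ly6a (12.0 against 8.78 TPM) a higher one, and their part in these differences was not tested.

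The acyl-CoA synthetases, which trap fatty acids in the cell by joining them to coenzyme A, included the gene with the smallest p of the list. Acsl1, the main long-chain synthetase of muscle and fat, stood at 61.7, 71.1 and 83.1 TPM in the knockout libraries and at 137, 107 and 113 TPM in the control libraries. The groups did not overlap, and the knockout mean was 60.6% of the control mean (log2 difference −0.72, SE 0.14, limma adjusted p = 0.163). Its exons share 1039 bases with Gm45244, an unverified transcript on the opposite strand. Acsl4, which prefers arachidonic acid, stood at 27.6, 22.6 and 23.5 TPM in knockout and at 35.9, 31.7 and 30.3 TPM in control, again without overlap (log2 difference −0.40, SE 0.11, adjusted p = 0.275). Acsl6, at 63.6 ± 13.8 and 82.8 ± 17.2 TPM, and Acsl5, at 6.13 ± 0.63 and 7.25 ± 0.51 TPM, had lower means in knockout with overlapping libraries, and the log2 difference of Acsl6 went from −0.37 to −0.21 without Sfpq knockout replicate 3. Acsl3, a synthetase of the endoplasmic reticulum and lipid droplets, had a higher mean in knockout (75.2 ± 9.39 against 67.9 ± 23.4 TPM), and without control replicate 1 its log2 difference turned from 0.20 to −0.06 (0.30 without Sfpq knockout replicate 2, 0.44 without control replicate 2). Acsl1 made up 25.6%, 29.5% and 34.2% of the summed level of the 5 synthetases in knockout and 42.8%, 35.4% and 36.7% in control, so every knockout share lay below every control share, the nearest pair being 34.2% and 35.4%. Acot13, a thioesterase that works in the reverse direction by splitting acyl-CoA, stood at 80.2, 102.6 and 99.7 TPM in knockout and at 122, 93.3 and 114 TPM in control, and its groups overlapped. Its log2 difference of −0.22 was −0.11 without Sfpq knockout replicate 1, −0.14 without control replicate 1 and −0.33 without control replicate 2.

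**Figure D3:**
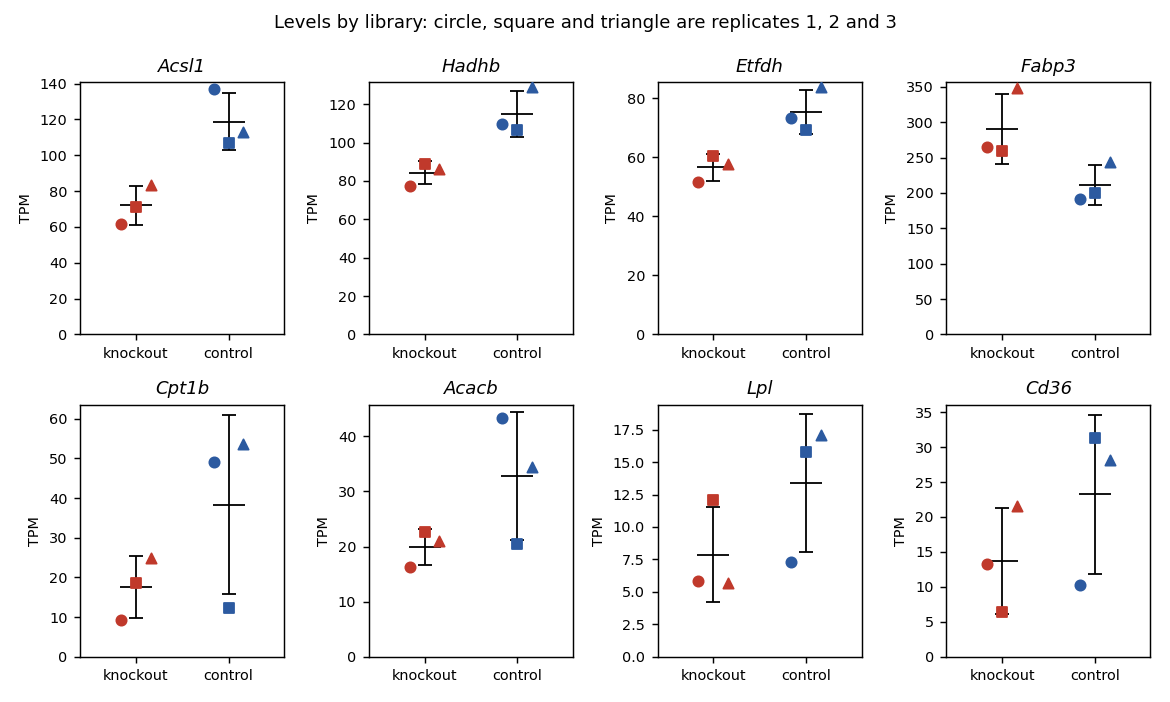
TPM by library of 8 of the genes, with the mean of each group as a dash and its SD as whiskers (n = 3); the panels were chosen after the values were seen. Acsl1, Hadhb and Etfdh are separated downwards in knockout and Fabp3 upwards, while Cpt1b and Acacb have control replicate 2 (square) among the knockout values and Lpl and Cd36 have control replicate 1 (circle) there.

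In the carnitine shuttle, carnitine palmitoyltransferase 1 of the outer mitochondrial membrane forms acylcarnitine and sets the rate of entry. Cpt1b, the muscle isoform, stood at 9.33, 18.7 and 24.9 TPM in the knockout libraries and at 49.2, 12.4 and 53.5 TPM in the control libraries. Control replicates 1 and 3 were at about the same level and well above all knockout libraries, whereas control replicate 2 lay within the knockout range. The log2 difference was −0.93 with a 95% interval from −2.35 to 0.48 (limma adjusted p = 0.560), and −1.59 without control replicate 2 (adjusted p = 0.178). It was −0.56 without Sfpq knockout replicate 1, −0.64 without control replicate 1 and −0.58 without control replicate 3. The exons of Cpt1b share 2744 bases with Gm44502, a gene on the same strand, so their reads could be hard to assign. Gm44502 had the same order of libraries, with 12.6, 18.005 and 22.8 TPM in knockout and 36.3, 14.4 and 40.5 TPM in control.

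Cpt1a, the liver isoform, which many other tissues also express, was near equal, with 10.7 ± 1.96 TPM in knockout against 11.4 ± 2.33 TPM in control. The share of Cpt1b in the sum of both isoforms was 52.0%, 63.1% and 66.6% in knockout and 84.8%, 48.2% and 81.6% in control. The shares overlapped through control replicate 2 alone, whose share was the lowest of all 6 libraries. Cpt2, which rebuilds acyl-CoA inside the mitochondrion, stood at 43.4, 52.5 and 47.6 TPM in knockout and at 57.2, 49.7 and 59.7 TPM in control (log2 difference −0.21, SE 0.11, limma adjusted p = 0.478). Crat, carnitine acetyltransferase, which buffers acetyl-CoA, was the most abundant gene of the shuttle, at 162, 168 and 174 TPM in knockout and at 164, 162 and 182 TPM in control. Its log2 difference was −0.01, with a 95% interval of −0.21 to 0.18.

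Malonyl-CoA blocks CPT1, so the enzymes that make and remove it govern the shuttle. Acacb, the acetyl-CoA carboxylase at the mitochondrial surface, stood at 16.3, 22.6 and 21.0 TPM in knockout and at 43.4, 20.4 and 34.4 TPM in control. Here too control replicate 2 lay within the knockout range. The log2 difference was −0.64 (SE 0.27, limma adjusted p = 0.410), and without control replicate 2 it was −0.93 (adjusted p = 0.138), the smallest adjusted p of the 37 genes in that fit. Without control replicate 1 it was −0.41 (adjusted p = 0.558). Acaca, the cytosolic carboxylase that feeds fatty acid synthesis, stood at 5.76, 7.97 and 5.61 TPM in knockout and at 10.4, 7.34 and 8.93 TPM in control (log2 difference −0.41, SE 0.17, adjusted p = 0.408). Mlycd, malonyl-CoA decarboxylase, which removes malonyl-CoA, was level at 52.2, 48.4 and 57.5 TPM in knockout and at 48.6, 55.7 and 51.6 TPM in control (log2 difference 0.02, 95% interval −0.21 to 0.25). Its values were in the same range in all libraries, and its sign turned without Sfpq knockout replicate 3 (−0.04) or control replicate 1 (−0.03).

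The acyl-CoA dehydrogenases carry out the step that opens each round of beta-oxidation, each for its own chain length. Acadvl, the very long-chain enzyme of the inner membrane, stood at 229.7, 257 and 221 TPM in knockout and at 301, 262 and 318 TPM in control (log2 difference −0.31, SE 0.11, limma adjusted p = 0.336). Its groups did not overlap, though control replicate 2 and Sfpq knockout replicate 2 lay close together, and its exons share 1151 bases with Dvl2 on the opposite strand. Acadm, the medium-chain enzyme, stood at 90.0, 104 and 89.8 TPM in knockout and at 140.1, 108 and 133 TPM in control (log2 difference −0.42, SE 0.12, adjusted p = 0.297). Acad9, which also takes part in assembling respiratory complex I, was at 16.1, 18.7 and 17.97 TPM in knockout and at 21.8, 21.2 and 22.9 TPM in control (log2 difference −0.31, SE 0.09, adjusted p = 0.305). These were the 3 of the 6 dehydrogenases whose groups did not overlap, all lower in knockout (50%, against 15.3% of all genes tested).

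Acadl, the long-chain enzyme and the most abundant dehydrogenase, did not share that direction, at 297, 329 and 353 TPM in knockout and at 286, 300.2 and 382 TPM in control (log2 difference 0.02, 95% interval −0.29 to 0.34). Its sign was not stable and turned without Sfpq knockout replicate 3 (−0.03), control replicate 1 (−0.06) or control replicate 2 (−0.02). Acads, the short-chain enzyme, was at 147, 169 and 155 TPM in knockout and at 189.5, 161 and 188 TPM in control, and its groups overlapped through control replicate 2 (log2 difference −0.19, SE 0.10). Acad10, of less defined substrate, was low at 3.89 ± 0.77 and 4.46 ± 0.85 TPM. Its log2 difference of −0.16 ran from −0.04 without Sfpq knockout replicate 1 and −0.05 without control replicate 3 to −0.27 without replicate 2 of either group.

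The later steps were lower in knockout for all 6 genes in their means, where 64.5% of all genes tested had a log2 difference below 0. Hadha and Hadhb encode the alpha and beta subunits of the mitochondrial trifunctional protein, which hydrates, dehydrogenates and cleaves long chains. Hadhb stood at 77.6, 88.8 and 86.4 TPM in knockout and at 109.6, 107 and 129 TPM in control (log2 difference −0.44, SE 0.10, limma adjusted p = 0.216). Hadha stood at 149.7, 153 and 161 TPM in knockout and at 177, 180.4 and 195 TPM in control (log2 difference −0.25, SE 0.08, adjusted p = 0.320). For both subunits every knockout library was below every control library. They lie head to head on chromosome 5: in GRCm38.p6 the RefSeq span of Hadha, on the minus strand, ends at 30154980 and that of Hadhb starts at 30155253, with 272 bases between them. A stretch of 85 of these bases that no RefSeq or GENCODE exon covers, at chr5:30155163-30155247 on the strand of Hadhb, is shown because both genes had lower values in knockout.

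Between Hadha and Hadhb: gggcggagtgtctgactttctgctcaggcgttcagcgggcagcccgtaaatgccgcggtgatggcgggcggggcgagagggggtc

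Hadh, the dehydrogenase for medium and short chains, was at 105, 97.5 and 99.1 TPM in knockout and at 141, 113 and 123 TPM in control without overlap (log2 difference −0.32, SE 0.10, limma adjusted p = 0.315). Echs1, the short-chain enoyl-CoA hydratase, was at 76.0, 101.9 and 93.2 TPM in knockout and at 112, 99.6 and 112 TPM in control, and Sfpq knockout replicate 2 was above control replicate 2. Its log2 difference went from −0.26 to −0.14 without Sfpq knockout replicate 1. The mitochondrial thiolase Acaa2, which releases acetyl-CoA, had wide spread (152 ± 35.2 and 165 ± 27.0 TPM), and without Sfpq knockout replicate 1 its log2 difference turned from −0.13 to 0.05 (−0.28 without Sfpq knockout replicate 3, −0.23 without control replicate 2, near 0 without control replicate 3). The peroxisomal thiolase Acaa1a stood at 105, 118 and 104 TPM in knockout and at 134, 112 and 128 TPM in control. Acaa1a overlapped between groups through control replicate 2, and it has a close paralog, Acaa1b, with which reads may be shared.

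Unsaturated fatty acids need auxiliary enzymes that move or remove double bonds. Decr1, the mitochondrial dienoyl-CoA reductase, stood at 25.0, 33.9 and 28.8 TPM in knockout and at 37.2, 36.4 and 41.8 TPM in control (log2 difference −0.39, SE 0.13, limma adjusted p = 0.324). Eci2, an enoyl-CoA isomerase of peroxisomes and mitochondria, stood at 60.5, 76.5 and 71.7 TPM in knockout and at 82.6, 84.0 and 92.7 TPM in control (log2 difference −0.31, SE 0.11, adjusted p = 0.343). For both, every knockout library was below every control library. Eci1, the mitochondrial isomerase, stood at 76.9, 98.6 and 78.9 TPM in knockout and at 105.7, 94.96 and 103 TPM in control, with replicate 2 of the knockout above replicate 2 of the control (log2 difference −0.26, SE 0.12, adjusted p = 0.423).

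The dehydrogenases hand their electrons to the electron transfer flavoprotein, made of Etfa and Etfb, and from there to ubiquinone through Etfdh. Etfdh, the membrane oxidoreductase, stood at 51.7, 60.5 and 57.6 TPM in knockout and at 73.4, 69.2 and 83.9 TPM in control. The groups did not overlap on unscaled TPM (log2 difference −0.41, SE 0.11, limma adjusted p = 0.251), and the exons of Etfdh share 278 bases with 4930579G24Rik on the opposite strand. Etfb stood at 192, 224 and 207 TPM in knockout and at 287, 227 and 238 TPM in control, groups that were apart by a narrow margin (log2 difference −0.27, SE 0.12, adjusted p = 0.417). Without control replicate 1 the difference was −0.16. Its exons share 617 bases with Gm45233 on the same strand. Etfa, the other subunit, overlapped between groups at 141 ± 23.9 and 159 ± 10.7 TPM. Its log2 difference of −0.18 was −0.04 without Sfpq knockout replicate 1 and −0.28 without Sfpq knockout replicate 2.

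In lipid storage and its release no gene was separated among those tested. Pnpla2, adipose triglyceride lipase, which starts the breakdown of stored triglyceride, was the most abundant, at 86.3, 105 and 78.9 TPM in knockout and at 113, 88.0 and 125 TPM in control (log2 difference −0.26, SE 0.16, limma adjusted p = 0.553). Without control replicate 2 it was −0.40, without control replicate 3 −0.15 and without Sfpq knockout replicate 3 −0.17. Lipe, hormone-sensitive lipase, was at 1.86, 4.79 and 4.52 TPM in knockout and at 7.07, 2.61 and 8.02 TPM in control, with control replicate 2 again among the knockout values. Its log2 difference of −0.51 was −0.92 without control replicate 2, −0.26 without control replicate 3 and −0.18 without Sfpq knockout replicate 1. Plin2, the lipid droplet coat protein of most cells, was near equal at 31.0 ± 1.51 and 29.0 ± 3.44 TPM (log2 difference 0.10, 95% interval −0.16 to 0.36, and 0.02 without control replicate 2 or 0.18 without control replicate 3). Plin5, the coat protein of oxidative muscle, was under 1 TPM in every library, at 0.13, 0.40 and 0.17 TPM in knockout and at 0.55, 0.43 and 0.76 TPM in control. The groups did not overlap, but it was too low to be tested.

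The libraries of 1 group differed from each other along the pathway. Among the controls, replicate 2 held the lowest value for 26 of the 37 tested genes (70.3%, against 29.2% of all genes tested), and replicate 3 the highest for 20. Among the knockouts, replicate 1 held the lowest value for 22 (59.5%, against 29% of all genes) and replicate 2 the highest for 22. Leaving out 1 library moved the log2 difference by over 1.5 times for 19 of the 37 genes, 18 of the 24 whose groups overlapped and, of the 13 whose groups did not, Etfb alone. The rule is a ratio, so differences near 0, as for Crat, Mlycd and Acadl, exceed it through small moves. The contrast between overlapping and separated genes therefore follows in part from the rule, and the share over all genes was not counted. Of the 4 myoblast markers, Myod1 had a higher mean in knockout (589 against 466 TPM, control replicate 1 lowest at 274 TPM), and Pax7, Myf5 and Vcam1 had lower means. Without control replicate 2 the median log2 difference of the 37 genes was −0.33, and 22 of them were lower at an unadjusted p under 0.05 (10.4% of all genes in that fit, and 5.01% higher). Without Sfpq knockout replicate 1 the median was −0.22 and 6 were lower at that level (6.11% of all genes, and 1.73% higher). Without control replicate 3 the median was −0.25 and 6 were lower (5.48% of all genes, and 2.06% higher). Without Sfpq knockout replicate 2 the median was −0.32 and 16 were lower (9.96% of all genes, and 3.16% higher). After median-of-ratios scaling between libraries, which set the median of all genes to 0.00, the median of the 37 genes was −0.19, 31 were below 0, and 7 were lower at an unadjusted p under 0.05 (5.7% of all genes) against 1 higher (5.77%). The scaling divided Sfpq knockout replicate 2 by 0.977 and control replicate 2 by 1.07. Narrow separations between these libraries, as for Acadvl, Acadm, Decr1, Etfb and the summed level of the 39 genes, hold on unscaled TPM and not after this scaling.

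Other genes of fatty acid metabolism, from a list of 157 drawn up by function, were mostly lower as well. Of these, 136 were tested and 0 were called in either direction by limma. At an unadjusted p under 0.05, 33 were lower (24.3%, against 9.62% of all genes) and 0 higher (against 2.68% of all genes). Values were lower in knockout for 108 (79.4%, against 64.5% of all genes) and the median log2 difference was −0.20. After median-of-ratios scaling that median was −0.12, against −0.0011 over all genes. The counts of these other genes used TPM without scaling between libraries. Every knockout library was below every control library for 39 (28.7%, against 15.3% of all genes), and the reverse held for 1, Pparg (against 4.27% of all genes). Of the other genes of mitochondrial oxidation, which include those for branched-chain, odd-chain and short-chain acids and for ketone bodies, 11 of 21 were apart and lower (52.4%, against 15.3% of all genes), among them Acat1, the mitochondrial acetoacetyl-CoA thiolase (45.2 ± 3.31 against 63.3 ± 4.67 TPM), and Pcca, a subunit of propionyl-CoA carboxylase (12.4 ± 2.43 against 20.2 ± 0.28 TPM). The 21 also hold Ecsit and Nubpl, genes of respiratory complex I assembly, and Ecsit is among the 11. In peroxisomal oxidation 3 of 20 were apart and lower, a share of 15% that is near the 15.3% of all genes.

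In synthesis 5 of 16 tested genes were apart and lower (31.2%, against 15.3% of all genes), with a median log2 difference of −0.21. In storage 5 of 27 were (18.5%, near that of all genes), with a median of −0.10. Among those with the smallest p, Scd1 and Scd2, which desaturate stearoyl-CoA, stood at 19.4 ± 2.76 against 40.3 ± 11.6 TPM and at 179 ± 18.9 against 255 ± 10.9 TPM. Agpat5, an acyltransferase listed under storage, stood at 14.9 ± 1.44 against 21.9 ± 2.44 TPM. Over Acat1, Pcca, Scd1, Scd2 and Agpat5 the limma adjusted p ran from 0.161 to 0.209. The nuclear receptors gave the smallest p of this list. Esrrb, an estrogen-related receptor of the family that binds promoters of oxidative genes, stood at 7.67, 4.04 and 6.77 TPM in knockout and at 28.0, 17.6 and 31.3 TPM in control (log2 difference −1.89, SE 0.28, adjusted p = 0.105). Nr4a3, an orphan nuclear receptor, stood at 5.87, 9.11 and 5.66 TPM in knockout and at 17.3, 14.6 and 17.6 TPM in control (adjusted p = 0.108). Esrrg followed at 1.55 ± 0.15 against 3.71 ± 0.80 TPM (adjusted p = 0.153). Esrra, a more abundant estrogen-related receptor than Esrrb and Esrrg, differed less, at 69.4 ± 4.82 against 83.1 ± 3.80 TPM (log2 difference −0.26, limma adjusted p = 0.330).

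**Figure D4:**
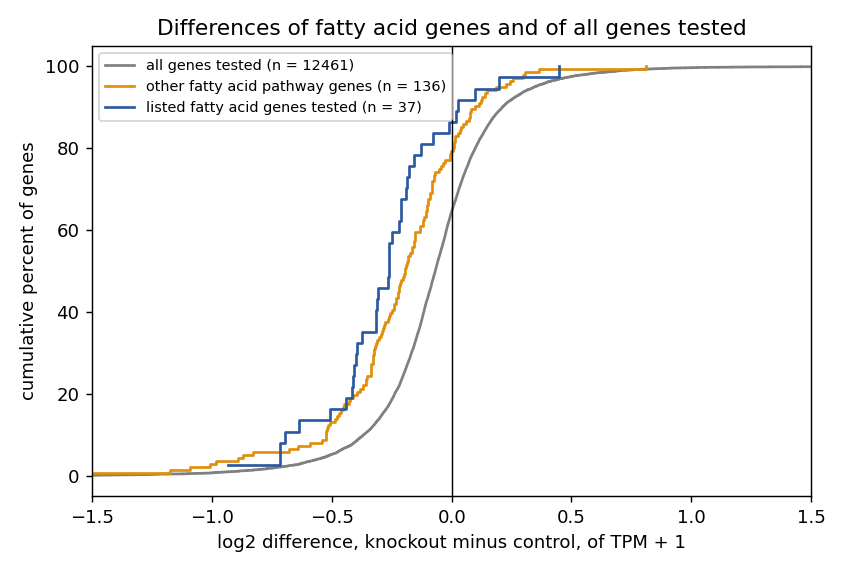
Cumulative share of genes by log2 difference between knockout and control of TPM + 1, for the 37 tested genes of the list, the 136 other fatty acid pathway genes tested and all 12461 genes tested. Around their medians of −0.26 and −0.20 both pathway curves lie to the left of the curve of all genes, whose median is −0.07. The lowest difference of the 37 genes is −0.93, against −3.05 over all genes, so their curve does not lie to the left in the left tail. The axis is drawn from −1.5 to 1.5.

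Because the title of the series concerns long genes, the genomic spans of the fatty acid genes were set beside their differences. The 37 tested genes span between 5.25 and 272.02 kb with a median of 27.0 kb, and 3 of them reach 100 kb: Acaca (chromosome 11, 84129635 to 84401651), Cd36 (chromosome 5, 17781690 to 17888959) and Acacb (chromosome 5, 114146321 to 114250761). All 3 had lower values in knockout, with a median log2 difference of −0.64, and their groups overlapped. Among all 1415 genes tested of that span, 72.4% had lower values, with a median of −0.14. The 34 shorter genes had a median of −0.26, against −0.06 over the 10539 shorter genes among all tested, and the 12 genes separated downwards are all among these 34. Over the 37 genes the log2 difference and the log10 span had a Pearson r of −0.21 and a Spearman rho of −0.17, a description across genes of the same 6 libraries. Acsl1 spans 65.0 kb (chromosome 8, 46471037 to 46536051) and Etfdh 25.0 kb (chromosome 3, 79603788 to 79628767).

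Estrogen-related receptors bind the core motif AGGTCA extended at its 5′ end, TNAAGGTCA, and the fatty acid receptors of the PPAR family bind 2 copies of it in direct repeat with 1 base between (AGGTCANAGGTCA). These letters were searched on both strands of the RefSeq promoter windows of GRCm38.p6, which run from 250 bases before to 50 after each start and cover 31 of the 39 genes. The plain core motif was in the window of 9 of the 31 genes (29%), against 18.1% of all 27025 genes with a window, a count that includes the extended sites. The 9 were Acacb, Acadm, Acadvl, Acsl6, Cd36, Cpt1a, Echs1, Plin2 and Plin5. Of these, Acadm and Acadvl were among the 12 tested genes separated downwards (32.4% of the 37 tested, against 15.3% of all genes). Plin5 was too low to be tested, and how many of the 12 have a window was not counted. Plin2 had a higher mean in knockout and the others had lower means. A part of the motif in the differences was not tested. The extended site was in 1 of the 31, Acsl6, against 1.43% of all genes, and the direct repeat in 0, against 0.0481%. The Acsl6 stretch (chr11:54303614-54303683) holds the extended site and a plain core motif close by, both on the reverse strand, and the Acadvl stretch (chr11:70015486-70015535, minus strand) a plain core motif. They are printed 5′ to 3′ on the strand of the gene with the matches in capitals.

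Acsl6: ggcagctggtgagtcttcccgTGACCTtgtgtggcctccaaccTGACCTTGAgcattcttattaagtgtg
Acadvl: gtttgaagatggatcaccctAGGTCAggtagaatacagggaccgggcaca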

How the data were processed

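Differentiated primary myoblast cultures were profiled by polyA RNA sequencing (3 Sfpq knockout and 3 control libraries, grouped by their titles). The authors deposited TPM, with 1 value for each RefSeq accession. The submitters' processing notes name STAR 2.4.1d and the build mm10. The sources used here do not name the counting tool, the annotation release or the use of strand. Of 34671 accessions, 30822 were named through a RefSeq table of GRCm38.p6 and 103 through GENCODE M21 (the other 3746 kept their accession), and TPM was summed per gene. The listed genes have 1 accession each, so levels of separate transcripts were not compared, and 16 of them share exonic bases with another GENCODE gene.

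Genes that reached 1 TPM in 3 or more libraries entered the fit on log2(TPM + 1), which understates differences of low genes, with limma 3.58.1 in R 4.3.3 (intensity trend, 2-sided, Benjamini-Hochberg adjustment over 12461 genes, threshold 0.05). The fit was first run on simulated data with changes larger than those of the tested members, so that run does not show how it finds differences of their size. Python 3.11.15, pandas 2.3.3 and matplotlib 3.10.9 were used for joining and plots. TPM keeps no depth, so no counting interval is given.

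The members, lists and tests were chosen with earlier results of these data known. Values per library are given for the 20 tested members with the smallest p, for the most abundant member of each role and, outside that rule and after values were seen, for Lpl, Cd36, Cpt1b, Lipe, Plin5, Fabp4 and Gm44502, for the shares of isoforms and for the sums. The other pathway genes named are the 8 with the smallest p, and outside that rule Pparg, Acaa1b, Ecsit, Nubpl and Esrra. Alternatives covered pseudocount, filter, scaling, moderation, a replicate block, NM_ accessions alone, a looser threshold and each library left out. The sum of myotube markers other than Acta1 was added after the data had been seen.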

Additional observations from a re-analysis of the deposited data

How the results depend on the processing

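None of the fatty acid genes passed in any of the 16 alternative fits or at an adjusted p under 0.1. Over these fits their median log2 difference ran from −0.33 (without control replicate 2) to −0.19 (median-of-ratios scaling), and their smallest adjusted p from 0.138 to 0.490. The number of all genes called was 0 in the fit as reported, 2 without the intensity trend, 7 with a mean TPM of at least 5, 13 with a pseudocount of 5 and 28 at an adjusted p under 0.1. The sign held in these fits for 31 genes and turned for 6, whose log2 differences were 0.20 or smaller in size, and the cause was not tested. After quantile normalization Cpt1a was at 0.020 and Crat at 0.021, and after median-of-ratios scaling Crat was at 0.064. With each library left out in turn, Acsl3 ran from −0.064 to 0.441, Cpt1a from −0.239 to 0.055, Crat from −0.039 to 0.042, Mlycd from −0.045 to 0.077, Acadl from −0.057 to 0.152 and Acaa2 from −0.285 to 0.053. Same-numbered libraries did not deviate together (correlations −0.26, −0.25 and 0.05, none the best match of its own number). These correlations, from 3 libraries per group, cannot settle whether the numbers pair the libraries. With the replicate number as a block, 0 fatty acid genes and 0 of all genes were called, 32 were lower and the median was −0.26. Read depth is unknown, and 3 libraries per group limit the precision.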
